A study of Mus musculus with 3 samples.

Results

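Endothelial cells line the blood vessels of the cochlea, and 260 of the 7262 cells of the library from mice at postnatal day 7 (P7) that passed the cell filter were chosen as endothelial. They were chosen by measured counts of unique molecular identifiers (UMIs, each standing for 1 captured RNA molecule). A cell needed at least 500 detected genes and at most 20% of its UMIs in mitochondrial genes. It then needed at least 1 UMI each of Cdh5 and Pecam1, at least 3 UMIs of Cldn5 or of Egfl7, and no UMI of Ptprc or Epcam, which mark immune and epithelial cells. These 260 cells were 3.58% of the P7 cells (exact 95% binomial interval 3.16 to 4.03%, counting error only). The same rule found 38 of 2838 cells in replicate 1 from embryonic day 15 (E15) and 50 of 3537 cells in E15 replicate 2, of 13637 cells over the 3 libraries. The rule rests on measured values, so the size of the set and the 6 genes of the rule carry no test. Near the threshold, 4 cells had exactly 3 UMIs in the better of Cldn5 and Egfl7, and 2 cells with Cdh5 and Pecam1 fell just short with 1 or 2 UMIs. Their medians over 28 other pan-endothelial genes were 23.5 and 23 UMIs, beside 120 UMIs over the whole set.

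All 3 libraries came from whole cochleae of wildtype C57BL/6J mice, with no other allele or agent: 1 library at P7 and 2 at E15. The cochleae were dissociated with papain and thermolysin, sorted to remove debris and captured by droplet. How many animals each library pooled was not given in the sources used here. The P7 age has 1 library, so age cannot be told apart from that library, and where E15 values carry an SD it is over 2 libraries whose independence the labels do not state.

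Vessels of the cochlea, those of the stria vascularis above all, are joined by tight junctions and form a blood-labyrinth barrier that is compared with the blood-brain barrier. In brain vessels, Wnt and norrin signals acting through Lef1 and related factors induce transporters such as Slc2a1 (the glucose transporter GLUT1) and Mfsd2a (a lipid transporter that restrains transcytosis) and lower Plvap, a protein of the diaphragms of fenestrae and caveolae. Arteries carry Sox17 and the connexins Gja5 and Gja4, while capillaries and veins carry other sets of genes. Slco1a4 is an organic anion transporter of barrier vessels.

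The libraries held 93829443 UMIs at P7 and 46530036 and 44304364 UMIs in E15 replicates 1 and 2. The endothelial cells had a median of 9305 UMIs at P7, with a range of 705 to 53181, and medians of 13977.5 and 11432 UMIs at E15. Between 3 and 6 barcodes were shared by a pair of libraries, and 0 of these were endothelial cells. Levels are sums of UMIs scaled to the same total over the 27734 genes that all 3 files list, written CPM. They were set against "other cells", which are those of the same library with no UMI of Cdh5 and none of Pecam1 (6204 cells at P7). RNA of other cell types differed between ages inside the endothelial set. The 12 fibrocyte and mesenchyme markers summed to 3139 CPM at P7 against 61.7 and 124 CPM at E15, and to 25803 CPM in the other P7 cells. The 6 red blood cell markers summed to 3946 CPM at P7 and to 54.4 and 49.2 CPM at E15, and the 12 pericyte and smooth muscle markers to 458 CPM against 7.35 and 17.9 CPM. The 10 macrophage markers summed to 444 CPM in E15 replicate 1, and to 5.96 and 23.4 CPM in E15 replicate 2 and at P7. The 8 osteoblast and cartilage markers summed to 1745 CPM at P7 against 10.3 and 23.8 CPM at E15. At P7, 14 endothelial cells held over 0.5% of their UMIs in the fibrocyte list and 3 held over 100 red blood cell UMIs, together 17 cells. Lesser amounts were more widespread. At least 3 UMIs of the fibrocyte list were found in 179 of the 260 cells, and at least 3 of the osteoblast and cartilage list in 67. The 422 P7 cells with the highest doublet scores, a number set by an assumed rate, were taken as predicted doublets. They included 21 of the 260 cells, among them 11 of the 14 fibrocyte-rich cells. The doublet caller's own threshold marked 8 cells in the whole P7 library. The part of this foreign RNA in the results below was not tested beyond the values without such cells, which keep the lesser amounts in the remaining cells.

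The set carried the genes of endothelium well beyond those of the rule. All 28 pan-endothelial genes outside the rule were detected at P7, each above 50 CPM and each at more than 2 times its level in the other cells. Their sum was 12062.5 CPM against 595 CPM in the other cells. Cldn5, a gene of the rule and the tight junction claudin of endothelium, stood at 2767 CPM. Sox18, an endothelial transcription factor, stood at 432 CPM against 0.346 CPM in the other cells, and Ctla2a at 2133 against 1.99 CPM. Ly6c1, a surface antigen of mouse capillaries, stood at 695 against 0.744 CPM. Among genes of at least 100 CPM outside the rule, the largest ratio was that of Gpihbp1, which carries lipoprotein lipase across capillary walls, at 152.4 against 0.0930 CPM. Abcb1a, the drug efflux pump P-glycoprotein, stood at 385 against 0.518 CPM. Igfbp7, a secreted protein abundant in vessels, was the third most abundant RNA of the set at 9078 CPM. These contrasts share the cells that the rule chose, so they describe the set and are no test of it.

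At the depth each cell had, most P7 endothelial cells carried the barrier, Sox17 and Plvap transcripts at the same time. A UMI of Mfsd2a or Slco1a4 was found in 217 of 260 cells (83.5%, 78.4 to 87.8%), a UMI of Sox17 or Gja5 in 215 cells (82.7%, 77.5 to 87.1%) and a UMI of Plvap in 216 cells (83.1%, 78.0 to 87.4%). Taken apart, Slco1a4 was detected in 203 cells and Mfsd2a in 121. Sox17 was detected in 214 cells, and Gja5 in 5 cells with 9 UMIs in all. The arterial label of that class therefore rests on Sox17, and the class is called Sox17 or Gja5 positive here. All 3 classes together were met by 155 cells, whose median was 12106 UMIs. Barrier and Sox17 or Gja5 without Plvap were met by 31 cells, barrier and Plvap by 25, and Sox17 or Gja5 and Plvap by 26. Cells of a lone class were few, with 6 barrier cells, 3 Sox17 or Gja5 cells and 10 Plvap cells, and 4 cells met none. Depth moved with these combinations: the 4 cells that met none had a median of 1579 UMIs.

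Thinning each cell to 4000 UMIs, which left out 43 shallower P7 cells, gave shares on equal depth. Barrier genes were then found in 161 of 217 P7 cells (74.2%, 67.8 to 79.9%), and in 0 of 36 and 0 of 46 cells of E15 replicates 1 and 2, whose intervals reach 9.74 and 7.71%. Before thinning, 1 of 38 and 1 of 50 E15 cells had such a UMI. Plvap was found in 65.9% of the thinned P7 cells (59.2 to 72.2%) and in 94.4% (81.3 to 99.3%) and 91.3% (79.2 to 97.6%) of the E15 cells. Sox17 or Gja5 was found in 67.3% at P7 and in 47.2 and 56.5% at E15, where the intervals overlapped. The other P7 cells, thinned alike, gave 14.8% for the barrier genes, 3.92% for Plvap and 0.0928% for Sox17 or Gja5. Before thinning, 20.9% of the other P7 cells held a UMI of Slco1a4 and 5.64% one of Mfsd2a. With 1 P7 library these shares have no test over samples.

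**Figure D1:**
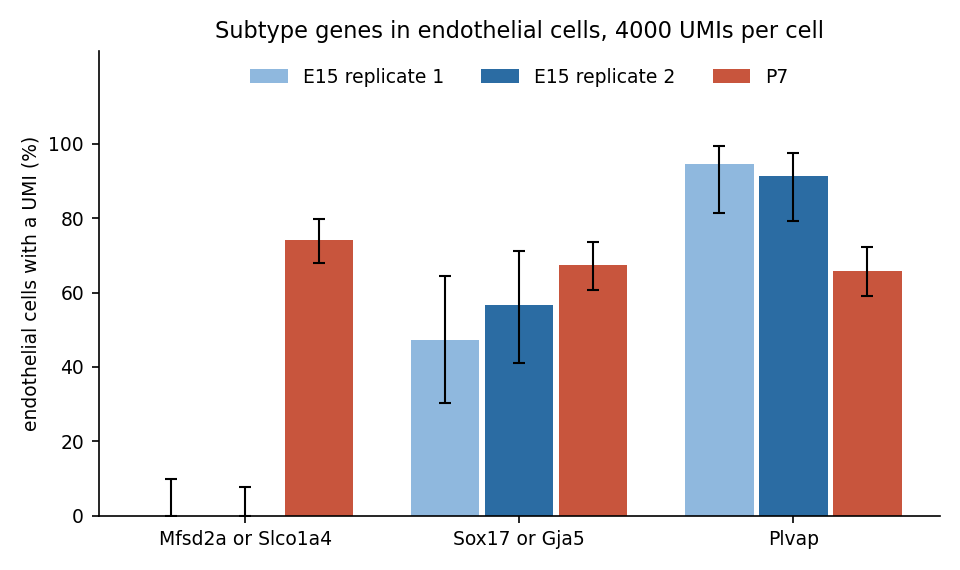
Percentage of endothelial cells with at least 1 UMI of each subtype gene or pair of genes after thinning every cell to 4000 UMIs, by library (36, 46 and 217 cells). Bars are shares and lines are exact 95% binomial intervals, which cover counting error only. The barrier pair was found in 74.2% of P7 cells and in 0 E15 cells, and Plvap in 65.9% at P7 against 94.4 and 91.3% at E15.

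At 1 UMI for a positive cell, barrier genes and Plvap were often found in the same P7 cells. Among thinned P7 cells, Plvap was found in 64.0% of the 161 barrier positive cells (56.0 to 71.4%) and in 71.4% of the 56 barrier negative cells (57.8 to 82.7%). These intervals overlap, which does not show that the shares were equal. The median of Plvap was 1 UMI in the barrier positive and 2 UMIs in the barrier negative cells. Of the other P7 cells, thinned alike, 14.8% were barrier positive too. Slc2a1, which the class did not use, was found in 91.3% of the barrier positive cells (85.8 to 95.2%) against 51.8% of the barrier negative cells (38.0 to 65.3%). Its median was 4 UMIs in the first and 1 UMI in the second. Sox17 or Gja5 was found in 72.7% against 51.8%, with intervals of 65.1 to 79.4% and 38.0 to 65.3%.

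**Figure D2:**
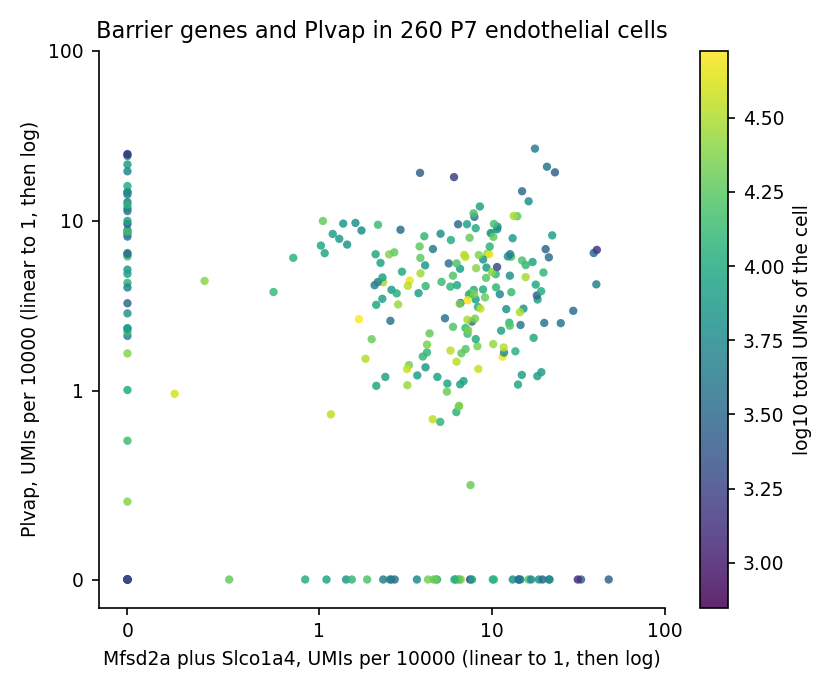
UMIs of Mfsd2a plus Slco1a4 (x axis) and of Plvap (y axis) per 10000 UMIs in each of the 260 P7 endothelial cells, on axes that are linear to 1 and logarithmic above. Colour gives the log10 of the cell's total UMIs. Most cells lie away from both axes, with 37 cells on the x axis alone, 36 on the y axis alone and 7 at the origin.

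The 37 cells with a barrier gene and no Plvap were set against the 36 cells with Plvap and no barrier gene, at medians of 7006 and 7048 UMIs. This pair and the pairs by Gja4 and Vwf below were chosen after their values were seen, and cells of 1 library are not replicates, so levels and ratios carry counting intervals and no test. Of 22 barrier and transport genes with a level, 15 were at least 2 times higher in the barrier cells and 0 were lower, with a median ratio of 2.86. Over all 3271 genes, 5.75% were that much higher and 3.58% that much lower, and the median ratio was 1.01. Slc2a1 stood at 928 CPM against 186 CPM, a ratio of 4.99 (3.73 to 6.78), with UMIs in 34 of 37 and 17 of 36 cells. Spock2, an extracellular proteoglycan, had a ratio of 10.2 (7.24 to 14.9), with UMIs in 36 and 12 cells. Bsg (basigin), the partner of lactate transporters, had a ratio of 5.12 (4.61 to 5.69). Ratios were 2.63 for Slc7a5, a large amino acid transporter, 2.54 for Abcb1a, 4.06 for Foxq1, a transcription factor, and 3.08 for Lsr, a protein of tricellular junctions. Slc38a5, a glutamine transporter, had 101 UMIs against 3, and Tfrc, the transferrin receptor, 70 UMIs against 3, each with UMIs in 12 barrier cells. Lef1, the Wnt-responsive transcription factor, had a ratio of 2.02 (1.31 to 3.17). Sox17, which defined neither set, had a ratio of 1.10 (0.852 to 1.43). Other lists moved with this pair. Of 10 cell cycle genes with a level 9 were higher in the barrier cells, and of 3 red blood cell markers 3 were, with median ratios of 6.45 and 30.1. Of 20 arterial genes 3 were higher and 7 lower. The part of the foreign RNA in these ratios was not tested.

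Of 4 genes of peripheral capillaries and fatty acid uptake with a level, 3 were at least 2 times higher in the Plvap cells. Gpihbp1 stood at 352 CPM in them against 71.0 CPM in the barrier cells, a ratio of 0.202 (0.125 to 0.315), with UMIs in 20 of 36 and 8 of 37 cells. Ramp3, a partner of the calcitonin receptor-like receptor, had 32 UMIs in 15 Plvap cells and 2 UMIs in 2 barrier cells. Ratios were 0.320 (0.160 to 0.608) for Exoc3l2, 0.459 (0.310 to 0.671) for Col15a1, a vessel wall collagen, and 0.461 (0.363 to 0.584) for Clec14a, a surface protein of sprouting endothelium. Some large ratios rested on very few cells: the chemokine Ccl11 had 39 UMIs, all in 1 Plvap cell. Top2a, which untangles DNA in dividing cells, had 33 UMIs in 2 barrier cells and 0 in the Plvap cells. Mgp, an inhibitor of calcification, had a ratio of 0.210, which turned to 1.35 without the predicted doublets. With 2 UMIs required of a positive cell, the ratio was 3.29 for Slc2a1, 6.36 for Slc38a5, 0.743 for Clec14a and 1.79 for Sox17.

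The 215 Sox17 or Gja5 positive cells and the 45 negative cells differed less, with 1.49% of 3366 genes at least 2 times higher in the first and 1.19% lower. Of 13 arterial genes with a level 3 were higher and 0 lower. Gja4, the arterial connexin, had a ratio of 5.44 (2.61 to 13.6), with UMIs in 75 of 215 and 3 of 45 cells. Hhex, a transcription factor, had a ratio of 4.91 (2.23 to 13.5), and Cxcl12, the ligand of Cxcr4, one of 4.66 (2.93 to 7.90). Rbp7, a retinol-binding protein, was lower with a ratio of 0.210 (0.133 to 0.337). Slc2a1 had a ratio of 1.76 (1.51 to 2.06) and Plvap 0.737 (0.626 to 0.874). The depths differed, at medians of 10223 and 4764 UMIs. Haemoglobin Hba-a1 had a ratio of 0.0895 through 1 negative cell that held 99.6% of that set's UMIs. With 2 UMIs of Sox17 or Gja5 required of a positive cell, the ratio was 1.78 for Cxcl12 and 0.390 for Rbp7.

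Since Sox17 was found in 214 of 260 cells, Gja4 was used to look for a narrower arterial set. It was detected in 78 of 260 cells (30.0%, 24.5 to 36.0%), and 51 cells had at least 2 UMIs against 182 cells with none. Of 20 arterial genes with a level 15 were at least 2 times higher in the Gja4 cells and 0 lower, with a median ratio of 4.18. Over all 3535 genes, 2.15% were that much higher and 0.651% that much lower. Bmx, a kinase of arterial endothelium, had a ratio of 10.9 (6.41 to 19.6), with UMIs in 28 of 51 and 12 of 182 cells. Cxcl12 stood at 658 CPM against 87.8 CPM, a ratio of 7.49 (6.32 to 8.91). Ratios were 7.95 for Sema3g, 6.41 for Vegfc, 5.40 for the Notch target Hey1, 3.75 for the netrin receptor Unc5b and 2.17 for Efnb2, the arterial ephrin. Gkn3, a marker of brain arteries, had 116 UMIs in 11 of the Gja4 cells and 6 UMIs in 1 cell of the others. Of 11 venous genes with a level, 4 were lower in the Gja4 cells and 0 higher. Among them were Prcp with a ratio of 0.328, Aplnr, the apelin receptor, with 0.446 (0.375 to 0.529), and Flrt2. Car4, a carbonic anhydrase of capillaries, had a ratio of 0.269 (0.169 to 0.412).

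Of 22 barrier and transport genes with a level, 0 were at least 2 times higher in the Gja4 cells and 2 were lower. In the Gja4 cells against the cells with none, the ratio was 1.40 (1.29 to 1.51) for Slc2a1, 1.11 (0.995 to 1.24) for Slco1a4, 1.03 (0.840 to 1.27) for Mfsd2a and 0.953 (0.836 to 1.09) for Plvap. Of the 51 Gja4 cells 44 were barrier positive and 50 were Sox17 or Gja5 positive. The 217 barrier positive cells set against the 43 negative cells gave another picture. Of 20 arterial genes with a level, 0 were at least 2 times higher in the barrier positive cells and 13 were lower. Their median ratio was 0.368, beside 0.998 over all 3384 genes, at median depths of 9978 and 5603 UMIs. Kcnj8, a potassium channel of pericytes, had 67 UMIs in 5 of the Gja4 cells and 11 UMIs in 6 of the others. Of the pericyte and smooth muscle markers 3 of 3 with a level were higher in the Gja4 cells (median ratio 4.58), as were 3 of 4 red blood cell markers, and their part in the ratios was not tested. The depths of the Gja4 cells and the cells with none differed as well, at medians of 13747 and 8738.5 UMIs.

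Vwf, the von Willebrand factor of larger vessels, was used in the same way. It was detected in 62 of 260 cells (23.8%, 18.8 to 29.5%), and 38 cells had at least 2 UMIs against 198 with none, where 1.55% of 3549 genes were at least 2 times higher and 1.58% lower. Of the 38 cells, 10 (26.3%) were also among the Gja4 cells, which were 51 of the 260 cells. Eln (elastin) stood at 737 CPM against 73.3 CPM, a ratio of 10.1 (8.43 to 12.04), with UMIs in 26 of 38 and 78 of 198 cells. Fbln5, which assembles elastic fibres, had a ratio of 20.7 (14.9 to 29.2), with 46.4% of the Vwf cells' UMIs in 1 cell, and one of 10.1 without the predicted doublets. Wipf3 had a ratio of 24.3 (10.9 to 64.1) and Ptgs1, cyclooxygenase 1, one of 4.45 (2.85 to 6.98). Of 20 arterial genes with a level 12 were higher and 1 lower, and of 11 venous genes 3 were higher and 0 lower. Mfsd2a was lower at 75.8 CPM against 170 CPM, a ratio of 0.445 (0.322 to 0.603), with UMIs in 8 of 38 and 101 of 198 cells. Cxcl12 was lower as well, with a ratio of 0.329 (0.248 to 0.430). Slc2a1 had a ratio of 0.812 (0.736 to 0.894), Slco1a4 one of 1.22 (1.08 to 1.37) and Plvap one of 1.09 (0.950 to 1.25). Markers of other cells were lower in the Vwf cells. This held for 6 of 8 fibrocyte markers with a level, 3 of 3 osteoblast markers and 4 of 4 red blood cell markers, with median ratios of 0.200, 0.180 and 0.0176. Of the pericyte list, Rgs5 had 1 UMI in the Vwf cells and 1041 UMIs in the others. The part of this RNA in the ratios was not tested.

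**Figure D3:**
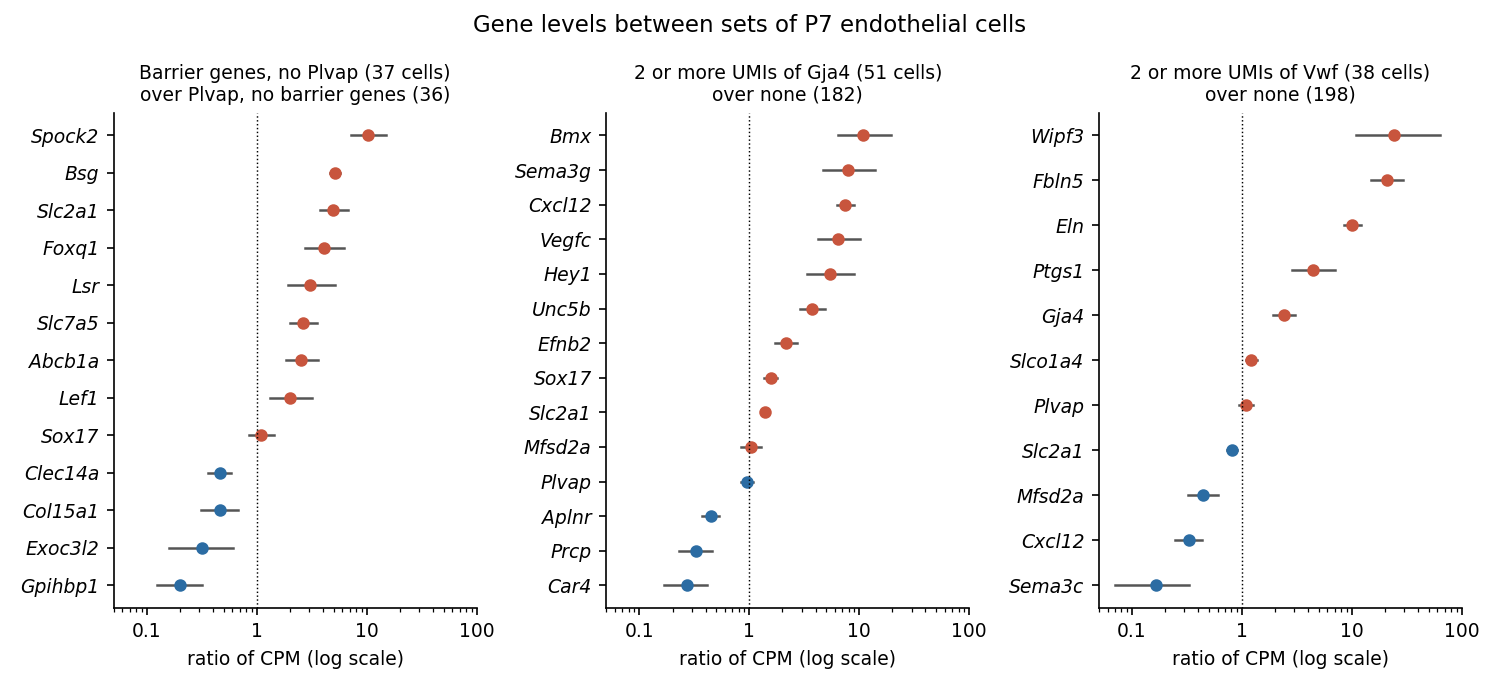
Ratio of gene levels between sets of P7 endothelial cells, on a log scale. Points are ratios of summed CPM and lines are 95% intervals that cover counting error only. Barrier and transport genes lie to the right in the first panel, arterial genes such as Bmx (10.9) and Cxcl12 (7.49) lie to the right in the second, where Mfsd2a (1.03) and Plvap (0.953) lie near 1 and Slc2a1 at 1.40, and Eln (10.1) and Mfsd2a (0.445) lie apart in the third.

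Between E15 and P7, 843 of 8372 genes tested were higher in endothelial cells at P7 (10.1%) and 597 were lower (7.13%), by edgeR's quasi-likelihood test at a Benjamini-Hochberg adjusted p under 0.05 and a fold of 2. Sums per library were compared, 2 at E15 and 1 at P7. With 1 residual degree of freedom, the P7 library was assumed to vary as the E15 pair did. The number of calls differed between fits: with at least 2 UMIs of Cdh5 and of Pecam1 required, 0 genes passed (lowest adjusted p 0.068, 2915 genes at an unadjusted p under 0.05), while DESeq2 called 378 higher and 357 lower. With at most 10% mitochondrial UMIs 1103 were higher and 826 lower, and without the predicted doublets 1053 and 801. With no filter on low counts 0 genes passed as well (lowest adjusted p 0.11, 3441 genes at an unadjusted p under 0.05). Besides the genes given with their DESeq2 p, that tool did not call Foxq1, Alpl, Depp1, Tmem252, Aqp1, Cxcr4, Smad6, Tgfbr3, Bmpr2, Jam3, Lamb2 or Clec14a. All 1440 called genes kept their sign without either E15 replicate. They were picked from these same libraries and the P7 library stayed in, so their signs could not test the calls. The change in endothelial cells was also tested against the change in the other cells of the same libraries, as a difference. The other cells were 1 sum over all other cell types, so shifts in their mix between ages enter the difference. In that sum the fibrocyte and mesenchyme markers went from 2661 and 2833 CPM at E15 to 25803 CPM at P7. The part of such shifts in the difference was not tested. Over 16044 genes this difference was called higher for 428 (2.67%) and lower for 616 (3.84%).

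Barrier and transport genes rose almost throughout: 22 of 25 tested were higher at P7, 0 were lower and the median log2 change was 3.87, beside a median of 0.0156 over all genes tested. Slc2a1 was at 216 and 271 CPM in E15 replicates 1 and 2 and at 953 CPM at P7. Its log2 change was 2.03 ± 0.16 (SE, adjusted p = 0.0059), with the other cells at 14.2, 14.2 and 22.9 CPM. Mfsd2a was at 1.47 and 8.94 CPM and then at 150.6 CPM (log2 change 4.90 ± 0.44, adjusted p = 0.0074). Slco1a4 had 0 UMIs in both E15 replicates. Its 518 CPM at P7 were at least 234-fold higher, where 3 UMIs over the E15 pair stand in for 0. In each of these genes the P7 library lay above both E15 libraries. Spock2 went from 4.41 and 2.98 CPM to 772 CPM (7.73 ± 0.24, adjusted p = 0.0024). Pltp, the phospholipid transfer protein, went from 26.4 and 56.6 to 1089 CPM, and Abcb1a from 32.3 and 22.3 to 385 CPM. Slc7a5 went from 98.4 and 71.5 to 725 CPM, Bsg from 483 and 545 to 3616 CPM, and Car4 from 0 UMIs to 78.0 CPM, at least 35.2-fold higher. The regulators Foxq1 (log2 change 4.06) and Foxf2 (2.26) and the antigen Ly6a (5.18) rose as well. Abcg2, another efflux pump, was already at 482 and 471 CPM at E15 and stood at 682 CPM at P7, a log2 change of 0.57 that was not called.

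The difference from the other cells was called higher for 14 of the 25 barrier genes and lower for 1, beside 2.67% and 3.84% of all genes. It was 1.10 for Slc2a1, 3.02 for Mfsd2a, 5.86 for Spock2, 2.99 for Slc7a5 and 2.97 for Foxf2, on the log2 scale. For Slco1a4 it was not called. That gene was at 0 UMIs in both E15 endothelial sums and went from 0.0473 and 0.270 CPM to 48.5 CPM in the other cells. Without the 17 cells rich in fibrocyte or red blood cell RNA the log2 change was 2.13 for Slc2a1 and 4.94 for Mfsd2a, near the values with them.

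**Figure D4:**
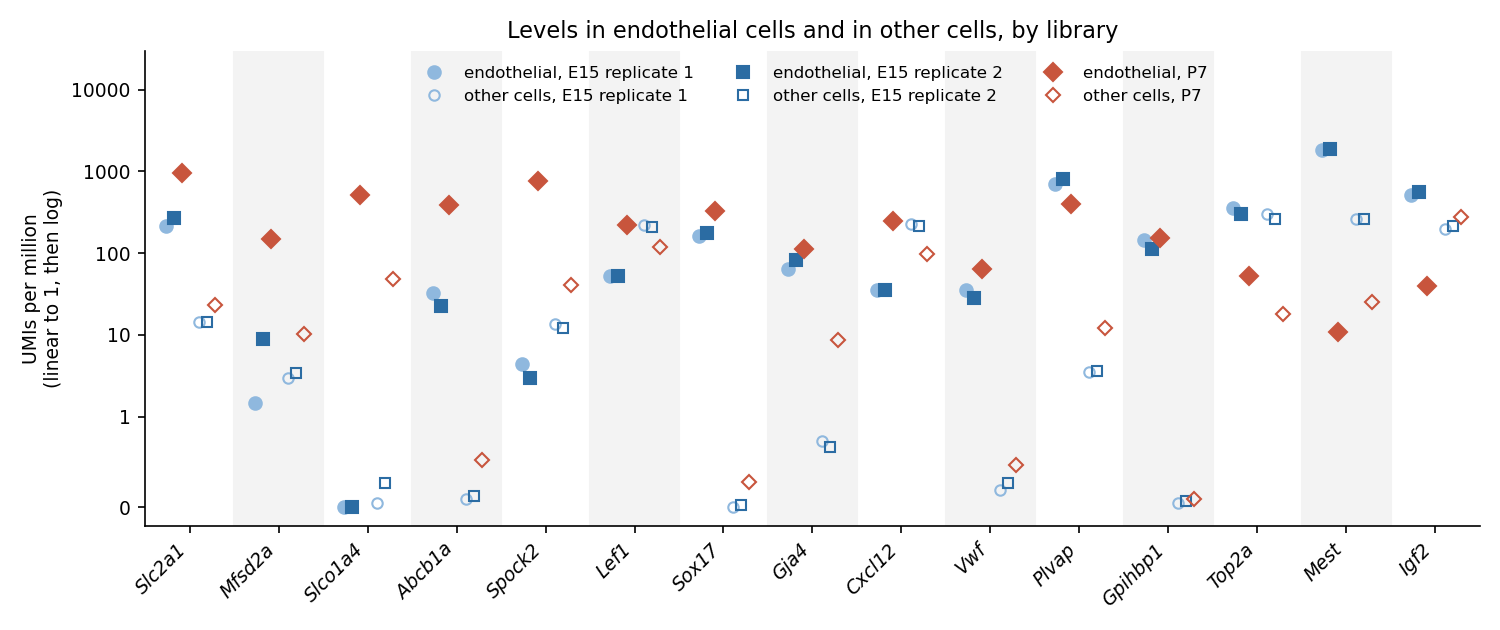
Level of 15 genes in endothelial cells (filled) and in other cells (open) of each library, in CPM on an axis that is linear to 1 and logarithmic above. Circles and squares are E15 replicates 1 and 2, and diamonds are P7. Slc2a1, Mfsd2a, Slco1a4, Abcb1a and Spock2 stand higher in P7 endothelial cells than in both E15 replicates, while Plvap, Top2a, Mest and Igf2 stand lower.

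The sequence just before the start sites of the 3 barrier transporters is given because these genes rose together. The 250 bases before the RefSeq start on GRCm38.p6 are printed from 5′ to 3′ on the gene's strand, for Slc2a1 at chr4:119108495-119108744 (plus strand), Mfsd2a at chr4:122961189-122961438 (minus strand) and Slco1a4 at chr6:141856221-141856470 (minus strand). Capitals mark matches to a SOX motif.
Slc2a1: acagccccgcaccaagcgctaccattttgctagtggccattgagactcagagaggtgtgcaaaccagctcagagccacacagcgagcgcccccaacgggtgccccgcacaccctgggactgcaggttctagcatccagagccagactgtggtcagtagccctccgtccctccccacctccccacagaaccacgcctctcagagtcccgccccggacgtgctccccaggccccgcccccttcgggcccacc
Mfsd2a: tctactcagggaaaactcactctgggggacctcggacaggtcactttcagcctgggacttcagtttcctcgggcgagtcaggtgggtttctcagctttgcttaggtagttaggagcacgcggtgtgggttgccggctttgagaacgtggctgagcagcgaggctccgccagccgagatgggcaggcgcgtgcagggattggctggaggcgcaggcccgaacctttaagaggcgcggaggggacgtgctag
Slco1a4: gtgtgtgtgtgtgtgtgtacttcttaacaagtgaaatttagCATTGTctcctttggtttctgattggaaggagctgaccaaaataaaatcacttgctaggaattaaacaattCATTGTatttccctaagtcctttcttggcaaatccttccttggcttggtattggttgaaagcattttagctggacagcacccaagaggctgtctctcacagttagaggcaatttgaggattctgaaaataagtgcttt

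Both strands were searched for a TCF/LEF motif (CTTTGAA or CTTTGAT), an ETS motif (CGGAAG) and a SOX motif (ACAATG or ACAATA). Slco1a4 held 2 SOX matches, and the Slc2a1 and Mfsd2a windows held 0 matches to the 3 motifs. The windows had a GC content of 66.4% for Slc2a1, 61.6% for Mfsd2a and 39.2% for Slco1a4, with 13, 17 and 0 CG dinucleotides. Among 28 promoters of 21 genes of the barrier list that RefSeq's table holds, 4 had the TCF/LEF motif, 4 the ETS motif and 3 the SOX motif. Among all 32851 promoters, 7.48%, 13.6% and 17.4% had them. These are descriptions of short windows.

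Genes of Wnt and norrin signalling rose in part, with 6 of 16 tested higher, 0 lower and a median log2 change of 1.03. Lef1 was at 52.9 and 52.1 CPM at E15 and 218 CPM at P7 (log2 change 2.11 ± 0.17, adjusted p = 0.0060). In the other cells Lef1 went the opposite way, from 219 and 207 to 121 CPM, and the difference was 2.69. Axin2, the feedback target of Wnt signals, went from 5.88 and 8.94 to 24.6 CPM in endothelial cells and from 55.9 and 56.3 to 32.4 CPM in the other cells, a difference of 2.34. Tcf7l1 rose by a log2 change of 1.14, Fzd6 by 1.78, the norrin co-receptor Tspan12 by 1.67 and Nkd1 by 2.67. Nkd1 stood at 36.7 CPM at P7, below the 238 CPM of the other P7 cells. Fzd4, the norrin receptor, was at 63.2 and 62.6 CPM and then at 94.7 CPM, a change that was not called. The difference was called higher for 5 of the 19 genes of the list and lower for 1, beside 2.67% and 3.84% of all genes. DESeq2 did not call Axin2 (adjusted p = 0.49), Tcf7l1 (0.47), Tspan12 (0.070) or Nkd1 (0.13).

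Of 24 arterial genes tested 12 were higher at P7 and 1 lower, with a median log2 change of 1.17. Eln went from 1.47 and 1.49 CPM to 218 CPM (log2 change 7.18 ± 0.32, adjusted p = 0.0028), with the other cells at 26.8 CPM at P7. Fbln5 went from 1.47 and 2.98 to 93.2 CPM. Mgp went from 1.47 and 2.98 to 844 CPM, beside 1201 CPM in the other P7 cells. Bmx went from 0 and 1.49 to 32.8 CPM, and Gkn3 from 0 UMIs to 38.9 CPM, at least 17.5-fold higher. Alpl, alkaline phosphatase, went from 0 UMIs to 17.3 CPM, below the 96.2 CPM of the other P7 cells. Cxcl12 went from 35.3 and 35.8 to 248 CPM while it went from 228 and 218 to 97.6 CPM in the other cells, a difference of 3.81. Without the 25 cells with at least 3 UMIs of the pericyte list the log2 change was 8.24 for Eln, 7.64 for Mgp (8.58 with them) and 3.61 for Cxcl12 (2.86 with them). Depp1 fell from 49.9 and 53.6 to 16.4 CPM. Sox17 was at 162 and 179 CPM and then at 327 CPM, a log2 change of 1.00 ± 0.14 that was just short of the fold of 2. Sox17 passed without the 17 cells rich in fibrocyte or red blood cell RNA, at 1.08. Gja4 was at 63.2 and 83.4 CPM and then at 112 CPM, and Efnb2 at 80.8 and 71.5 and then 104 CPM, and neither was called.

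Of 15 venous genes tested 4 were higher and 1 lower, where 10.1% and 7.13% of all genes were called. Their median log2 change was 0.27. The difference from the other cells was called lower for 7 of 20 venous genes and higher for 0, beside 3.84% and 2.67% of all genes. Slc38a5 went from 4.41 and 2.98 to 96.8 CPM, Tmem252 from 14.7 and 50.7 to 267 CPM, and Vwf from 35.3 and 28.3 to 64.7 CPM. Icam1, the leukocyte adhesion receptor, fell from 49.9 and 55.1 to 21.6 CPM. DESeq2 called neither Vwf (adjusted p = 0.43) nor Icam1 (0.30).

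Plvap was at 702 and 812 CPM at E15 and at 400 CPM at P7. Both E15 libraries lay above P7, but the log2 change of -0.86 ± 0.14 did not reach the fold of 2. The difference from the other cells was -2.86, where Plvap went from 3.52 and 3.66 to 12.1 CPM in those cells. Of 11 genes of caveolae and transcytosis only Cavin2 was called, where 10.1% of all genes were called higher and 7.13% lower. Cavin2 went from 52.9 and 34.3 to 199 CPM and to 202 CPM in the other P7 cells. The difference from the other cells was called lower for 7 of the 11 genes and higher for 0, beside 3.84% and 2.67% of all genes. The list summed to 2057 and 2296 CPM at E15 and 2045 CPM at P7 in endothelial cells. In the other cells it summed to 169 and 176 CPM and then to 662 CPM. Among 7 genes of peripheral capillaries and fatty acid uptake 2 were higher and 1 lower. Rgcc, a cell cycle regulator abundant in capillaries, went from 433 and 399 to 1153 CPM and Aqp1, a water channel, from 4.41 and 5.96 to 27.3 CPM. Aqp1 was higher, at 40.4 CPM, in the other P7 cells. Fabp5, a fatty acid-binding protein, fell from 83.7 and 80.5 to 8.20 CPM. Gpihbp1 was at 147 and 112 CPM and then at 152.4 CPM, and was not called. Cd36, the fatty acid translocase of peripheral capillaries, had 0 UMIs at P7.

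Of 19 tip cell and sprouting genes 1 was higher, Cxcr4 (16.2 and 8.94 to 40.7 CPM), and 1 was lower, Nid2 (178 and 215 to 79.5 CPM), with a median log2 change of -0.04, where 10.1% and 7.13% of all genes were called. The difference from the other cells was called lower for 7 of 21 tip cell and sprouting genes and higher for 2, beside 3.84% and 2.67% of all genes. Of 11 Notch genes only Hes1 was called, from 192 and 156 to 406 CPM, with a difference from the other cells of 1.09. Of 14 genes of TGF-beta and BMP signalling 7 were higher and 0 lower, with a median of 0.96. The BMP targets Id1 (345 and 246 to 777 CPM), Id2 and Smad6 rose, as did the receptors Acvrl1 (101 and 119 to 265 CPM), Bmpr2 (79.3 and 86.4 to 174 CPM) and Tgfbr3. The list's 16 genes summed to 2198 and 2244 CPM at E15 and 3918 CPM at P7. In the other cells they summed to 2041 and 2092 CPM and then to 4798 CPM. The difference from the other cells was called higher for 1 of the 16 and lower for 2, beside 2.67% and 3.84% of all genes. Id1 stood at 805 CPM in the other P7 cells, and Smad6 at 43.1 CPM there beside 20.6 CPM in the P7 endothelial cells. Id2 also went from 265 and 263 to 1222 CPM in the other cells, and its call was lost without the predicted doublets, where its log2 change was 0.65. Tgfbr3 was not called without the cells with pericyte RNA (adjusted p = 0.076).

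Of 16 junction genes 4 were higher and 0 lower. Ocln (occludin) went from 1.47 and 5.96 to 83.8 CPM and Lsr from 5.88 and 10.4 to 124 CPM, with differences from the other cells of 2.89 and 2.96. The adhesion molecules Jam2 (log2 change 2.51) and Jam3 (1.83) rose too. Jam3 stood at 76.2 CPM at P7, below the 126 CPM of the other P7 cells. Among 14 basement membrane genes 3 were higher and 2 lower. Lama5, a laminin chain of mature vessels, went from 4.41 and 8.94 to 56.2 CPM, Sparc from 2339 and 2542 to 6260 CPM and Lamb2 from 35.3 and 40.2 to 75.3 CPM, a rise not called without the predicted doublets (log2 change 0.88). Col18a1, the collagen that yields endostatin, fell from 657 and 834 to 290 CPM along with Nid2. Of 12 genes of crosstalk with mural cells only S1pr1, the sphingosine phosphate receptor, was called, from 129 and 124 to 268 CPM. Of 28 pan-endothelial genes 6 were higher, among them Adgrl4 (132 and 150 to 345 CPM) and Clec14a (273 and 259 to 515 CPM), and 0 were lower. Over all genes tested, 10.1% were higher and 7.13% lower. The difference from the other cells was called lower for 10 of the 28 pan-endothelial genes and higher for 3. It was lower for 9 of the 14 basement membrane genes and higher for 0. Of the 12 crosstalk genes it was lower for 6 and higher for 1. For 22 junction genes it was lower for 4 and higher for 3, beside 3.84% and 2.67% of all genes. The pan-endothelial genes summed to 8215 and 9148 CPM at E15 and 12062.5 CPM at P7 in endothelial cells. In the other cells they summed to 259 and 262 CPM and then to 595 CPM. The basement membrane genes went from 10808 and 11980 to 13276 CPM in endothelial cells, and from 1481 and 1487 to 8084 CPM in the other cells.

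Among 9 genes of leukocyte adhesion and antigen presentation 4 were higher and 2 lower. The class I genes H2-K1 (26.4 and 11.9 to 223 CPM) and H2-D1 (179 and 130 to 679 CPM) rose, and so did Ifitm3 (360 and 344 to 1154 CPM) and Ly6e (101 and 92.4 to 977 CPM), both interferon-responsive. H2-K1 and H2-D1 stood at 75.5 and 87.3 CPM in the other P7 cells, from 4.34 CPM or less and 13.3 CPM or less at E15, and their difference was not called, while that of Ly6e was 2.63. Madcam1, a homing receptor for lymphocytes, fell from 44.1 and 95.4 to 2.12 CPM.

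Cell cycle genes fell without exception among those tested, 22 of 22, with a median log2 change of -2.16. Top2a was at 354 and 298 CPM at E15 and at 53.1 CPM at P7 (log2 change -2.56 ± 0.20, adjusted p = 0.0058), and Ube2c, which drives exit from mitosis, went from 212 and 331 to 48.6 CPM. In the other cells Top2a went from 305 and 265 to 18.1 CPM, so the fall was smaller in endothelial cells, by 1.17. The difference was called higher for 11 of the 22 genes, beside 2.67% of all genes, with 1.30 for the replication factor Pclaf and 1.45 for Ube2c. Tpx2, Rrm2 and Mcm5 fell too, with log2 changes of -3.08, -2.75 and -2.41. After thinning to 4000 UMIs, 31 of 217 P7 cells (14.3%, 9.92 to 19.7%) held at least 5 cell cycle UMIs, against 27 of 36 (75.0%) and 31 of 46 (67.4%) cells in E15 replicates 1 and 2. That threshold was chosen after the values were seen.

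Of 13 tested genes of fetal growth, a list of imprinted genes and RNA-binding proteins of the fetus, 10 fell and 0 rose, with a median of -3.08. Mest was at 1816 and 1901 CPM at E15 and at 10.9 CPM at P7 (log2 change -7.34 ± 0.17, adjusted p = 0.0024). It fell less in the other cells, from 261 and 259 to 25.2 CPM, a difference of -4.23. Plagl1, an imprinted transcription factor, fell from 228 and 164 to 3.95 CPM and H19 from 291 and 311 to 20.04 CPM. Igf2, the growth factor beside H19, fell from 511 and 560 to 40.1 CPM in endothelial cells, whereas the other cells stood at 197 and 217 and then at 275 CPM, a difference of -4.34. Igf2bp1 went to 0 UMIs from 74.9 and 68.5 CPM, at least 78.8-fold lower, and Hmga2 to 0 UMIs from 51.4 and 26.8 CPM, at least 43.0-fold lower.

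**Figure D5:**
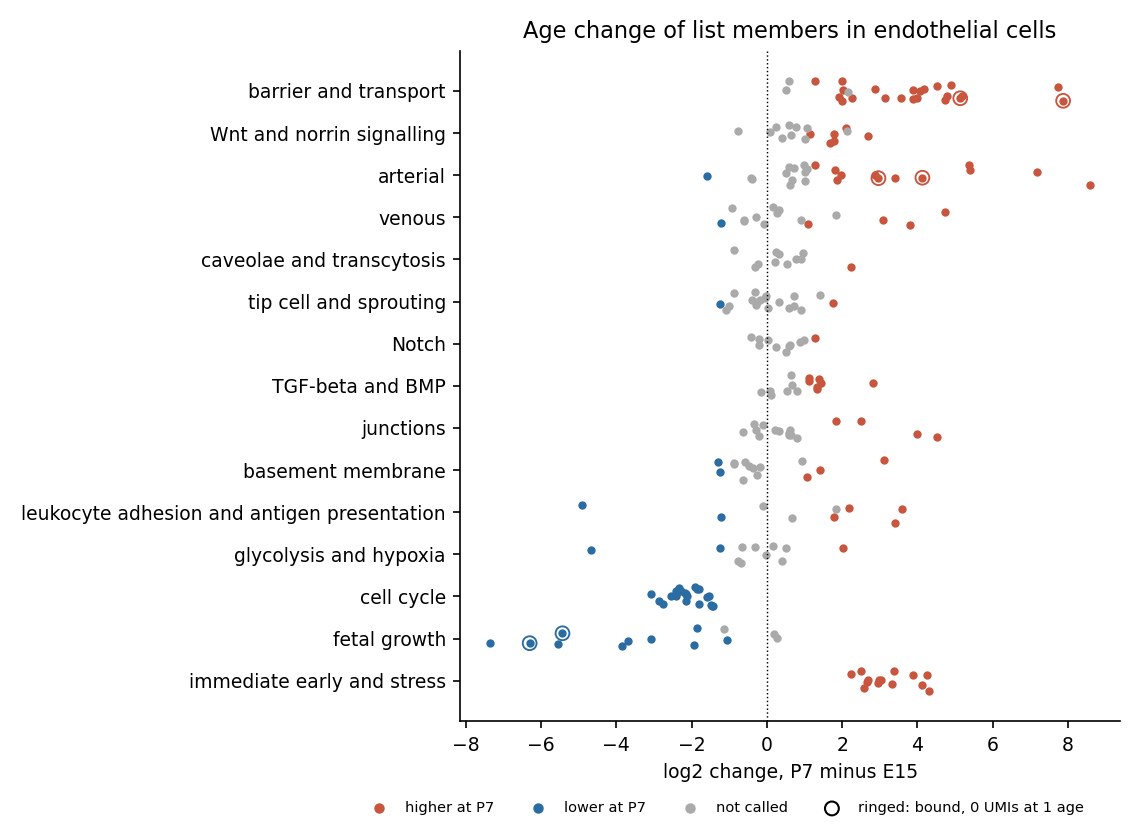
Log2 change from E15 to P7 in endothelial cells for the tested members of 15 gene lists, by edgeR (2 E15 libraries, 1 P7 library). Each point is a gene, coloured by its call. Ringed points had 0 UMIs at an age and are drawn at their bound against 3 UMIs. The points are shifted up or down at random within a list for legibility. Barrier genes lie to the right (median 3.87), cell cycle genes (-2.16) and fetal growth genes (-3.08) to the left.

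Immediate early and stress genes rose in 14 of 14 tested, with a median log2 change of 3.003. Fos went from 116 and 121 to 2253 CPM, Egr1 from 45.5 and 49.2 to 874 CPM, Zfp36 from 35.3 and 23.8 to 498 CPM and Nr4a1 from 13.2 and 23.8 to 262 CPM. The other cells were high at P7 too, with Fos at 462 and 467 and then at 3264 CPM, and the summed list at 16056 CPM against 12450 CPM in endothelial cells. These genes are known to respond quickly to stress and to tissue dissociation. The difference was 1.25 for Fos and 1.65 for Egr1.

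Rgs5, of the pericyte list, is a regulator of G protein signalling that marks pericytes. It went from 0 UMIs to 317 CPM, at least 143-fold higher, but its UMIs lay in 31 of the 260 cells, and it no longer entered the test without the 25 cells with at least 3 UMIs of that list. Itih5, a hyaluronan-binding protein, went from 2.94 and 2.98 to 695 CPM (log2 change 7.89 ± 0.24, adjusted p = 0.0024). Elovl7, a fatty acid elongase, went from 0 UMIs to 148 CPM, at least 66.6-fold higher, Paqr5, a progestin receptor, to 67.1 CPM, at least 30.2-fold, and Sema3c, a guidance factor, to 62.8 CPM, at least 28.3-fold. The interferon-induced GTPases Gbp3 and Iigp1 went from 0 UMIs to 58.6 and 60.7 CPM. Prnd, the prion-like protein doppel, known from developing vessels, went from 244 and 268 CPM to 0 UMIs, at least 281-fold lower. It was listed at 0 in the other P7 cells too, from 0.0709 and 0.0491 CPM at E15. The imprinted Peg10 fell from 194 and 121 to 1.82 CPM, and the receptor Gpr183 from 54.4 and 50.7 to 1.21 CPM.

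Other large falls were shared with the other cells. Rnasek had 118 and 210 CPM at E15 and 0 UMIs at P7 in endothelial cells, and 96.5 and 104 CPM and then 0.439 CPM in the other cells. Nme2 went from 1529 and 1524 to 40.7 CPM, and from 1302 and 1391 to 45.4 CPM in the other cells. Pgk1, a glycolytic enzyme, went from 165 and 146 to 5.77 CPM and to 8.37 CPM in the other P7 cells. Fbxl7 and Hist1h1d fell to 0.607 and 3.04 CPM, and stood at 0.319 and 1.83 CPM in the other P7 cells. The P7 file names another version of the counting software than the E15 files and lists 28692 genes against 32285. Only genes listed in all files were used, and the part of that difference in these falls and in that of Prnd was not tested. Pkm, another glycolytic enzyme, fell from 610 and 656 to 255 CPM.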

How the data were processed

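Whole cochleae of 1 P7 and 2 E15 mouse libraries were measured by droplet single-cell RNA-seq. The matrices hold raw UMI counts per gene and cell, made by the authors with Cell Ranger 6.1.2 against GRCm38 (mm10), per the submitters' processing notes, while the P7 matrix names Cell Ranger 3.1.0, per the file headers. The members and gene lists were chosen with earlier results of these data known.

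P7 gene symbols were matched to those of the E15 files by Ensembl ID. UMIs of endothelial cells, and of cells with no UMI of Cdh5 and none of Pecam1, were summed per library. Sums were tested with edgeR 4.0.16 (TMM, filterByExpr, quasi-likelihood F test, Benjamini-Hochberg adjustment, adjusted p under 0.05 and a fold of 2), and with DESeq2 1.42.0 as an alternative. In the interaction test, library was a block. Intervals are exact (Clopper-Pearson for shares, binomial for ratios of counts) and cover counting error only. On simulated data (8376 genes, 200 of them changed) the age test recovered 76% of the 4-fold and 29% of the 2-fold changes and called 6 unchanged genes. The simulation gave all genes and libraries the same dispersion and no library effect. These rates therefore do not cover a P7 library that varies otherwise than the E15 pair. Doublets were predicted with Scrublet in scanpy 1.11.5 and kept, except in an alternative. No cells were clustered.

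Genes were named by rule. In the age comparison these were the 10 largest rises and falls of at least 50 CPM and of at least the other cells' level, and up to 6 called members of each list, with members that were not called as examples. In subset comparisons they were up to 12 genes each way of at least 50 CPM and 20 UMIs, and list members. Abcb1a, Slc7a5, Bsg, Foxq1, Foxf2 and Cxcl12 in the age comparison were chosen after their values were seen. A group under 3 UMIs was set to 3 UMIs for a bound. Values of 1 list member are not reported here, though list counts include it.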

Additional observations from a re-analysis of the deposited data

Results flagged for a closer look

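For 50 of the genes named above, the age change in endothelial cells differed from that in the other cells of the same 3 libraries by the interaction test in edgeR, at adjusted p-values up to 0.027. The differences below are endothelial minus other cells on the log2 scale. They rest on 1 P7 library and on other cells summed over all their cell types, and no explanation of them was tested. Of the 50, 7 were not called with DESeq2 and 5 with no filter on low counts.

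The change was larger upward, or smaller downward, in endothelial cells for barrier and transport genes: 1.10 for Slc2a1, 3.02 for Mfsd2a, 5.86 for Spock2, 2.22 for Pltp, 2.99 for Slc7a5, 1.19 for Bsg, 3.04 for Foxq1, 2.97 for Foxf2, 2.96 for Lsr and 2.89 for Ocln. For the junction gene Jam2 the difference was 1.22. Among Wnt and Notch genes it was 2.69 for Lef1, 2.34 for Axin2, 1.80 for Tcf7l1 and 1.09 for Hes1. Among arterial genes it was 6.01 for Mgp, 5.41 for Eln, 3.72 for Fbln5, 3.81 for Cxcl12 and 1.94 for Efnb2. It was 5.99 for Itih5, 2.63 for Ly6e, 1.10 for Clec14a, 1.25 for Fos and 1.65 for Egr1. For the cell cycle genes, which fell in both, it was 1.30 for Pclaf, 1.17 for Top2a and 1.45 for Ube2c. For Car4 (15.73), Rgs5 (12.46), Sema3c (13.21) and Paqr5 (11.41) both E15 endothelial sums were at 0 UMIs, so the size of the fitted difference depends on the prior count.

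The change was lower in endothelial cells for -4.23 in Mest, -4.17 in Plagl1, -3.70 in H19, -4.34 in Igf2, -5.99 in Peg10 and -6.72 in Gpr183. It was -3.30 for Sox17, -3.19 for Gja4, -4.85 for Icam1, -2.86 for Plvap, -1.27 for Cavin2 and -2.67 for S1pr1, genes whose level in the other cells was higher at P7 than at E15. For Sox17 the other cells were at 0 and 0.0245 CPM at E15 and 0.279 CPM at P7, so the size of its difference depends on the prior count too, and it was not called in either alternative. It was -2.56 for Fabp5, -1.41 for Nid2, -1.06 for Id2, -2.23 for Sparc, -1.21 for Col18a1 and -1.05 for Pkm.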

How the results depend on the processing

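The P7 library has no replicate, so no value carries the spread between animals, and the E15 endothelial sums (684375 and 674773 UMIs, against 3298971 at P7) limit low genes. The number of P7 endothelial cells stayed within 1.5 times of 260 under the 5 alternatives run (223 to 250). Shares followed the threshold and the depth. At 2 UMIs for a positive cell they were 73.5% for Mfsd2a or Slco1a4, 66.9% for Sox17 or Gja5 and 70.4% for Plvap, and after thinning 74.2, 67.3 and 65.9%. Plvap was at 87.9% with 2 UMIs of Cdh5 and of Pecam1 required. The age counts of 843 higher and 597 lower became 0 and 0 under that stricter rule (lowest adjusted p 0.068, 2915 genes at an unadjusted p under 0.05), 0 and 0 with no filter on low counts (0.11, 3441 genes) and 378 and 357 with DESeq2. The first of these fits held fewer cells and the second more genes, with prior degrees of freedom of 1.57 and 1.76 beside 3.49, and the cause was not tested. Under the 4 other alternatives there were 1042 to 1103 higher and 768 to 826 lower genes, with prior degrees of freedom of 15.4, 17.7 and, in 2 of them, an infinite estimate. Every called gene that an alternative could fit kept its sign, 1437 of 1437 under the stricter rule. The main fit had picked these genes from the same libraries, so the kept signs are no test of the calls. The interaction counts of 428 higher and 616 lower became 175 and 301 with DESeq2, which gave no adjusted p for 5289 genes, and 929 and 366 with no filter, where the cause was not tested. Of the named genes DESeq2 lost 18 age calls. Id2, Tgfbr3 and Lamb2 lost theirs without predicted doublets, pericyte RNA or fibrocyte-rich cells, while Sox17 gained one. Of genes at a ratio of 2 between Sox17 or Gja5 positive and negative cells, 50 higher and 40 lower became 85 and 14 without predicted doublets, 19 and 57 at 2 UMIs for a positive cell, and 77 and 31 without fibrocyte-rich or red blood cell-rich cells, an alternative chosen after seeing the data. Between barrier and Plvap cells the 117 lower genes became 66 without predicted doublets, where the ratio of Mgp turned from 0.210 to 1.35. No paired analysis was possible because P7 has 1 library, so the ages share fewer than 2 replicate numbers. In the interaction test the library was a term for cell sets of the same library.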

Other observations

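Lymphatic vessels left little trace in the P7 set. Prox1, the transcription factor of lymphatic identity, had 7 UMIs in the 260 P7 cells, and 0 and 2 UMIs in the endothelial cells of E15 replicates 1 and 2. Flt4, the receptor of lymphatic growth factor that blood vessels of the embryo also carry, was at 73.5 and 115 CPM at E15 and at 42.2 CPM at P7, which was not called. Mmrn1, multimerin, fell from 97.0 and 127 CPM to 11.5 CPM.

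Among cells with a UMI each of Cdh5 and Pecam1, 29 were left out of the P7 set only through a UMI of Ptprc or Epcam. Their median over the 28 pan-endothelial genes was 118 UMIs, with a range of 30 to 795, beside a median of 120 UMIs in the set. The 11 cells without a UMI of Cldn5 and Egfl7 had a median of 7 UMIs.

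In the few cells without Sox17 and Gja5, the 6 barrier cells without Plvap had 35 UMIs of Slc2a1 and 85 of Spock2. The 10 Plvap cells without barrier genes had 4 and 0. These sets are too small for more than such values.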
